A study of Rattus norvegicus with 68 samples.

Results

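Matrix metalloproteinases and their tissue inhibitors were followed in the nasal lining of rats that breathed formaldehyde. The members were the proteinase genes Mmp2, Mmp3, Mmp7, Mmp9, Mmp10, Mmp12, Mmp13 and Mmp14 and the inhibitor genes Timp1 and Timp3. They were chosen by symbol, and each was read from its probe set of highest mean signal. All 10 were measured, of 14217 genes on the array.

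The animals were male F344/CrlBR rats, 8 weeks old by their labels, exposed by whole-body inhalation for 6 h a day on 5 days a week. Pronase and collagenase at 80 U/ml released the cells from nasal tissue of level II, without the maxilloturbinate and without olfactory lining, and each animal's RNA was hybridised to 1 Affymetrix Rat230_2 array. The 68 arrays make 17 groups of 4 animals: unexposed rats at 0 ppm at 5 d and 13 w, and at all 3 times rats exposed at 0.7, at 2, at 6, at 10 or at 15 ppm. No 0 ppm animals at 4 w were analysed here, so 0.7 ppm was the reference at that time. Of the 20 labels at 4 w, 19 carry a treatment field that states 5 days, and the 4 w of their titles was used. The 0 ppm titles carry codes that the exposed titles do not, and the code at 5 d is not the code at 13 w. Their meaning is not given, so the codes cannot be told apart from the dose, nor from the time within 0 ppm. No label ties the arrays to a batch.

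Matrix metalloproteinases are zinc enzymes that cut collagen, laminin, proteoglycans and other proteins around cells. Most are secreted as inactive precursors, which plasmin and other proteinases can trim to the active form. Tissue inhibitors of metalloproteinases bind the active enzymes and block them. In a wounded epithelium these enzymes come from several sources, among them keratinocytes at the wound edge, fibroblasts, macrophages and neutrophils. Several of the genes lie side by side and are textbook targets of AP-1, the transcription factor formed by Fos and Jun proteins.

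Mmp13, Mmp12, Mmp3, Mmp10 and Mmp7 lie in that order in 1 cluster on rat chromosome 8, with Mmp1b, Mmp1, Mmp8, Mmp27 and Mmp20 among them. Mmp2 lies on chromosome 19, Mmp9 on chromosome 3, Mmp14 on chromosome 15, Timp1 on chromosome X and Timp3 on chromosome 7. RefSeq promoters of build GRCr8 were matched for 7 of the 10 members. The 250 bases before the transcription start are printed for 5 of them: the pair of stromelysin genes that rose, the cluster neighbours Mmp12 and Mmp13, which did not pass the test at any dose, and Timp1, which rose from outside the cluster. Capitals mark every match to TGANTCA, the letters of an AP-1 element, searched on both strands.
Mmp3 at chr8:12925031-12925280, plus strand: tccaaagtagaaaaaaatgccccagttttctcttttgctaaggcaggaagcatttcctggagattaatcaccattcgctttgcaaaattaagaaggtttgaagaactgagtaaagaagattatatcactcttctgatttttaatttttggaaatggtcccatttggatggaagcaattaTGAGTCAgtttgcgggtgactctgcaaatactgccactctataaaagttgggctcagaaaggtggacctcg
Mmp10 at chr8:12974457-12974706, plus strand: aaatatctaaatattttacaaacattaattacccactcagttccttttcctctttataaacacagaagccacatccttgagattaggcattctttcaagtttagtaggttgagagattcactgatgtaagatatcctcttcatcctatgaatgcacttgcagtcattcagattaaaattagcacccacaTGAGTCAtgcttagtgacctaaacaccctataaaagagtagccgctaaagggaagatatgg
Mmp12 at chr8:12866402-12866651, plus strand: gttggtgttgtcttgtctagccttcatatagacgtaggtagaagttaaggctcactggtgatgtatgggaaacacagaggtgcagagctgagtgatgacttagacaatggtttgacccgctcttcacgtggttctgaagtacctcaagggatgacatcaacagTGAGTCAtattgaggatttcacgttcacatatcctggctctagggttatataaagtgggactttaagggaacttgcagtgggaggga
Mmp13 at chr8:12782579-12782828, plus strand: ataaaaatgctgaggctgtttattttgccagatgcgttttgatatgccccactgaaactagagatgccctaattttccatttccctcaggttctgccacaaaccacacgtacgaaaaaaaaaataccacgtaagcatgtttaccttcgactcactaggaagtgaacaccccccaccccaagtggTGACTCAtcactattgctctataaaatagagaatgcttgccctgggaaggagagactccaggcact
Timp1 at chrX:3771123-3771372, minus strand: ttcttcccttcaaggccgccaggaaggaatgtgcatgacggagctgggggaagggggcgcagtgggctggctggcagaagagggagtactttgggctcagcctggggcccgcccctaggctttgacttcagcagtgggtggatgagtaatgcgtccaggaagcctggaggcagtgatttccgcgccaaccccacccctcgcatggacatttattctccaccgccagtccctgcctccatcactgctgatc
Each of the 5 matched cluster members held 1 match in this window. Of the 33469 promoters in the same table, 2122 held at least 1 match in theirs, or 6.34%. The match lay 71 bases before the start in Mmp3, 61 in Mmp10, 66 in Mmp13, 87 in Mmp12 and 80 in Mmp7. Of the 10 genes of the cluster, 7 held one. The Timp1 and Timp3 windows held no match to these exact letters. Variants were not searched, and the Timp1 window holds tgagtaa, which differs from them by 1 letter. The letters TATAAA were present before all 5 cluster members, against 12.9% of promoters, at 32 bases before the start in Mmp3. The ETS letters AGGAAG stood at 206 bases before the start in Mmp3, 125 in Mmp7, 95 in Mmp13, and 94 and 230 in Timp1, against 29.5% of promoters with a match. These matches are letters in a window, and the arrays give no binding at them.

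The values are log2 signals as normalised by the authors, and a difference of 1 is a doubling. Differences are given with their standard error, and a gene is said to rise or fall where the adjusted p of limma (Benjamini-Hochberg over all 14217 genes) was under 0.05. A mean signal under 6 is called low here, and no fold change is given against a low group. At 15 ppm the members split by time. Mmp3 rose by several log2 units at 5 d and at 4 w and had a low signal in every group at 13 w. Timp1 rose at all 3 times. Timp3 fell at 4 w and 13 w. Mmp9 and Mmp14 rose at 5 d, Mmp10 at 5 d and 4 w, and Mmp2, Mmp7, Mmp12 and Mmp13 passed the test in none of the 26 comparisons.

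At 15 ppm against 0 ppm at 5 d, 5 of the 10 members rose (Mmp3, Mmp9, Mmp10, Mmp14 and Timp1) and none fell, where 37.7% of all genes were called, 18.3% higher and 19.5% lower. The members' median difference was 0.50, against -0.01 over all genes. At 4 w, 3 members rose at 10 ppm against 0.7 ppm (Mmp3, Mmp10 and Timp1), where 14.8% of genes were called, 9.03% higher and 5.75% lower. At 15 ppm against 0.7 ppm the same 3 members rose and Timp3 fell, where 37.4% of genes were called, 21.3% higher and 16.1% lower. At 13 w, Timp1 rose and Timp3 fell at both 10 ppm and 15 ppm, where 26.4% and 44.2% of genes were called. Of all genes, 13.8% were called higher and 12.5% lower at 10 ppm, and 23.5% higher and 20.6% lower at 15 ppm. At each of these doses 2 of the 10 members were called, near the share of all genes at 10 ppm and under it at 15 ppm. The 4 members called at 15 ppm at 4 w were also near the share of all genes. The members' median difference was 0.33 at 10 ppm and 0.00 at 15 ppm at 4 w, against 0.00 and 0.01 over all genes. At 13 w it was -0.04 and 0.00 at these doses, against -0.01 and -0.02. With 10 genes, none of the counts in this paragraph is read as a result about the members. Comparisons at 1 time share their reference animals.

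No member was called at 0.7, 2 or 6 ppm by limma at any time, nor at 10 ppm at 5 d. All genes were called at 0%, 0.0281%, 8.83% and 15.5% at 0.7, 2, 6 and 10 ppm at 5 d. The shares were 0.0211% and 3.28% at 2 and 6 ppm at 4 w, and 0%, 0.00703% and 12.2% at 0.7, 2 and 6 ppm at 13 w. At an unadjusted p under 0.05 the count of members was 2 at 6 ppm at 5 d (Mmp2 and Mmp13), 2 at 10 ppm at 5 d (Timp1 and Timp3), 2 at 2 ppm at 13 w (Mmp2 and Timp1) and 0 in the other comparisons of this kind. Nor was a member called between 6 and 10 ppm at 5 d (1.02% of genes) or 13 w (3.98%), or between 10 and 15 ppm at 13 w (12.6%), where 0, 3 and 0 members had an unadjusted p under 0.05.

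**Figure D1:**
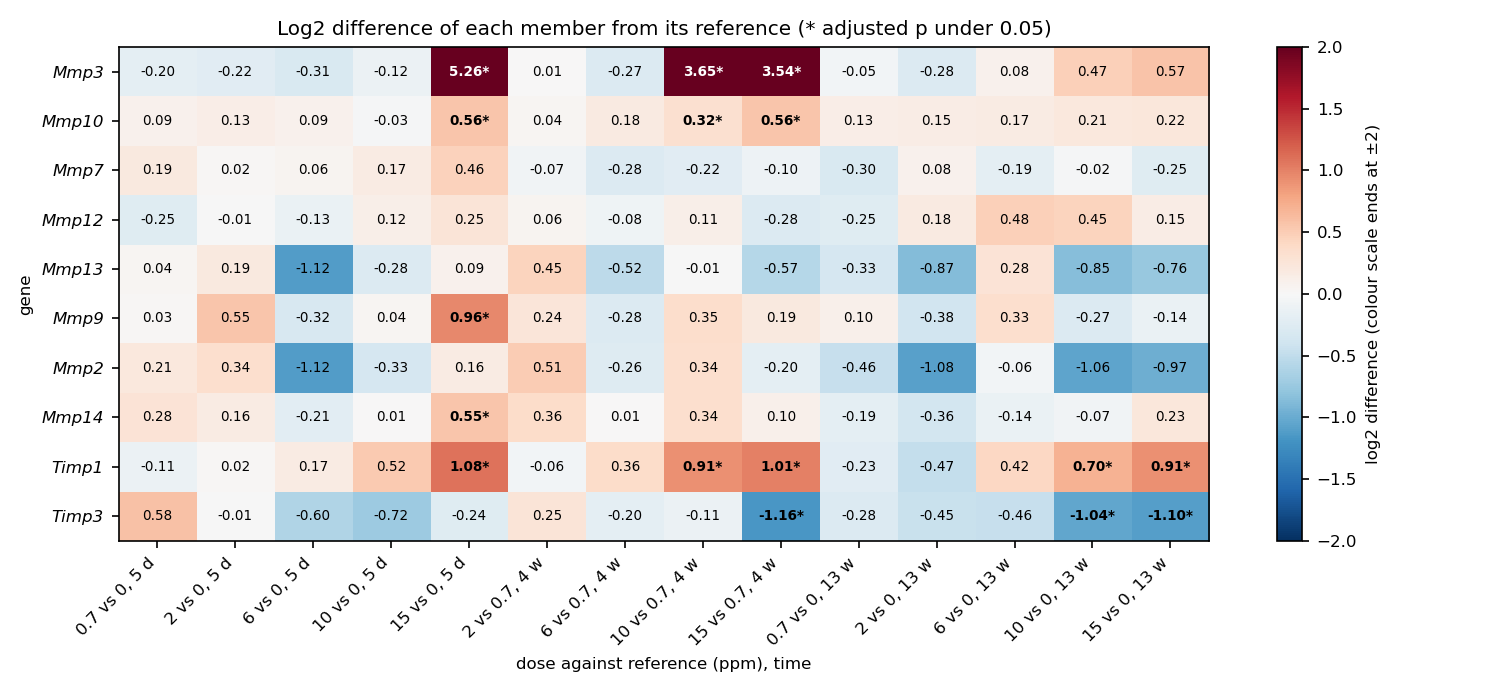
Log2 difference of each of the 10 members (rows) in the 14 comparisons of an exposed group with its reference (columns), with an asterisk where limma's adjusted p was under 0.05; colours end at 2 in either direction. Mmp3 stands out at 15 ppm at 5 d and at 10 and 15 ppm at 4 w, Timp1 is higher in every 15 ppm column, and Timp3 is lower at 10 and 15 ppm at 13 w.

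Mmp3, or stromelysin 1, cuts proteoglycans, laminin and fibronectin and can activate other metalloproteinases. At 5 d the 0 ppm animals had Mmp3 signals of 4.91, 4.81, 4.90 and 4.28, the 10 ppm animals 4.54, 4.19, 5.30 and 4.39, and the 15 ppm animals 8.79, 11.53, 9.73 and 9.90. All 4 animals at 15 ppm stood far above every other animal of that time, and those at 10 ppm overlapped the unexposed ones. The rise of Mmp3 was 5.26 ± 0.39 against 0 ppm (limma, adjusted p = 2.02e-16) and 5.38 ± 0.39 against 10 ppm (adjusted p = 1.75e-16), where 15.2% of genes were called between these doses, 7.18% higher and 8.00% lower. At 10 ppm against 0 ppm the difference in Mmp3 was -0.12, with a 95% interval from -0.90 to 0.67. Between 10 and 15 ppm at 5 d, Mmp9 and Mmp10 were the other members called.

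At 4 w Mmp3 was high from 10 ppm on. The 0.7 ppm animals had signals of 4.12, 5.12, 4.50 and 4.16, the 6 ppm animals 4.22, 3.94, 4.37 and 4.28, the 10 ppm animals 7.55, 7.80, 10.23 and 6.90, and the 15 ppm animals 8.65, 7.06, 8.15 and 8.20. The lowest animal at 10 ppm was above the highest at 6 ppm, and the 10 and 15 ppm groups overlapped. Against 0.7 ppm, Mmp3 rose by 3.65 ± 0.39 at 10 ppm (limma, adjusted p = 8.9e-10) and by 3.54 ± 0.39 at 15 ppm (adjusted p = 1.29e-10). Mmp3 was also higher at 10 ppm than at 6 ppm, by 3.92 (adjusted p = 8.95e-10), and it was the only member called there, where 0.577% of all genes were called, all of them higher (0% lower). Without the animal at 10.23 the rise at 10 ppm against 0.7 ppm was 2.94 (adjusted p = 1.07e-08). From 10 to 15 ppm the difference in Mmp3 was -0.11 (adjusted p = 0.918).

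At 13 w Mmp3 had low signals in all 6 groups. The 0 ppm animals had 4.44, 4.58, 4.11 and 4.41, the 10 ppm animals 4.38, 4.99, 4.18 and 5.86, and the 15 ppm animals 5.15, 4.93, 4.73 and 5.02. All 4 animals at 15 ppm were above all 4 at 0 ppm, by 0.57 on average with a 95% interval from -0.21 to 1.35, a difference that did not pass (limma, adjusted p = 0.25). This interval uses the spread pooled over all 17 groups. The SD of Mmp3 was 0.19 at 0 ppm and 0.18 at 15 ppm here, but 1.46 at 10 ppm at 4 w. The 15 ppm response was smaller at 13 w than at 5 d by 4.69 ± 0.55 (limma interaction, -4.69, adjusted p = 5.28e-09), where 15.3% of genes were called, 9.21% higher and 6.09% lower. Against 0.7 ppm, the response at 13 w was also smaller than at 4 w (-2.92, adjusted p = 0.0113), and Mmp3 was 1 of 9 genes called in that test, or 0.0633% of all genes (0.0141% higher and 0.0492% lower). The response at 4 w was smaller than at 5 d (-1.92, adjusted p = 0.0364), where 3.45% of genes were called, 1.58% higher and 1.86% lower. That call was lost in 12 of 27 alternatives, with differences from -2.32 to -1.38. Between 5 d and 13 w the responses at 6 ppm (0% of genes called) and 10 ppm (0.00703%) held no member call.

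In order of mean signal, Mmp3 stood at 9.99 at 15 ppm at 5 d, 8.12 at 10 ppm at 4 w and 8.01 at 15 ppm at 4 w. The last pair did not differ beyond its spread. The other 14 group means lay between 4.11 and 4.96 and were all low. Of the 68 animals, 56 were under 6.

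**Figure D2:**
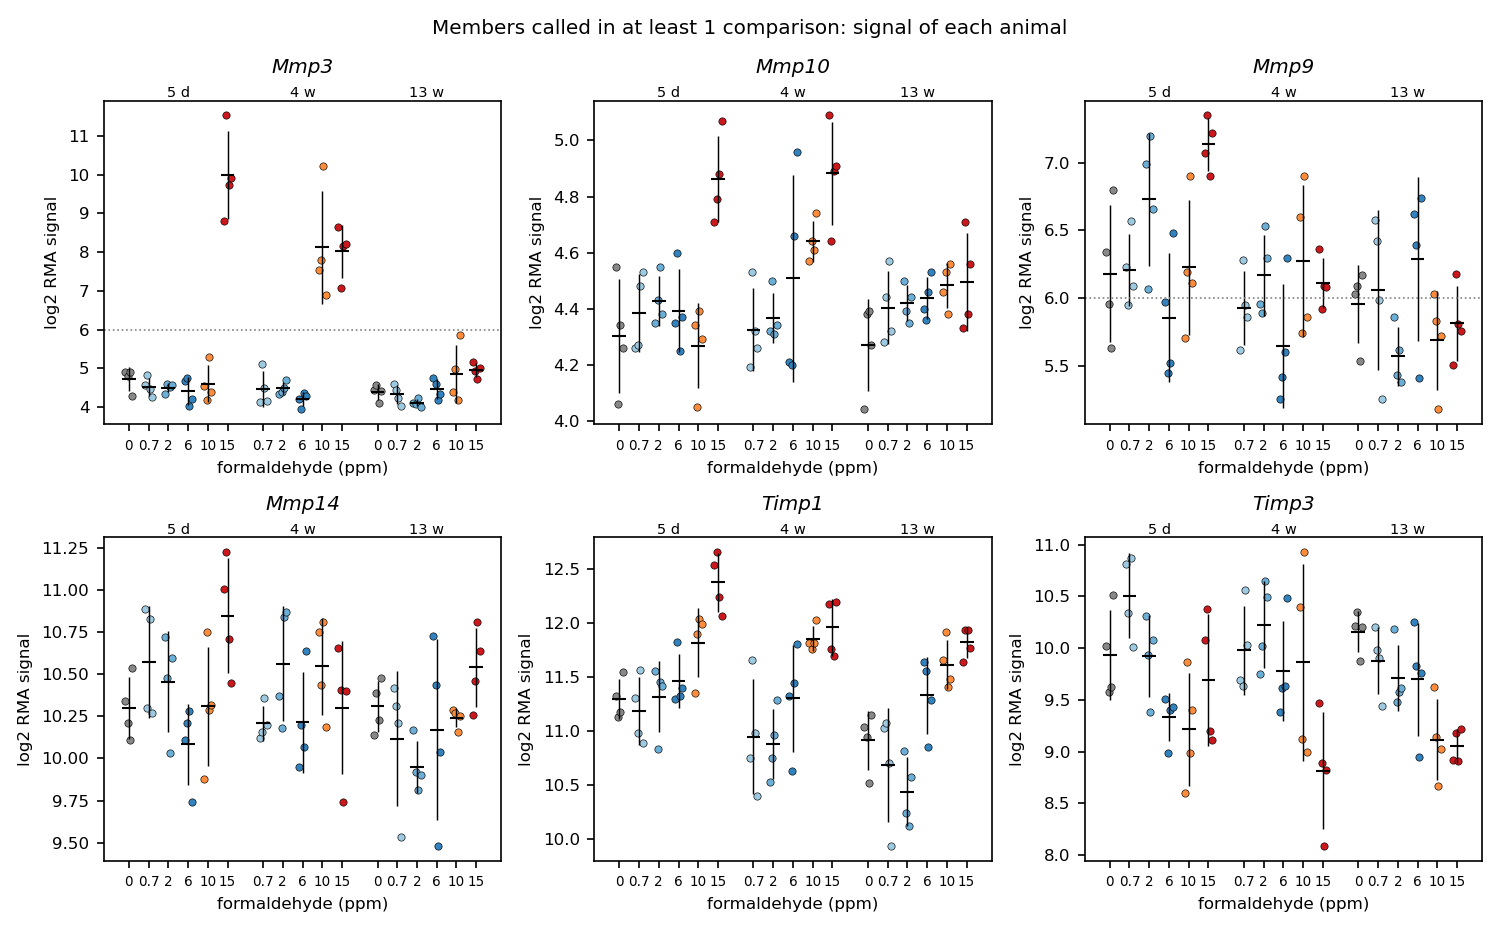
Log2 signal of Mmp3, Mmp10, Mmp9, Mmp14, Timp1 and Timp3 in each of the 68 animals by dose in ppm and time, with a bar at each group mean, a line of 1 SD to either side and a dotted line at the low-signal limit of 6. The 4 animals at 15 ppm and 5 d reach 8.79 to 11.53 for Mmp3, while the 13 w animals all stay under 6, and Timp1 lies highest in the 15 ppm group at each time.

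Mmp10, or stromelysin 2, is a close relative of Mmp3 made by keratinocytes at wound edges. Its signal was low in every animal, between 4.04 and 5.09, near the bottom of the array's range, which began at 3.17. At 5 d the 0 ppm animals had Mmp10 signals of 4.55, 4.06, 4.34 and 4.26 and the 15 ppm animals 4.71, 4.79, 4.88 and 5.07. The groups did not overlap, and the difference was 0.56 ± 0.11 (limma, adjusted p = 4.67e-05). At 4 w the 0.7 ppm animals had 4.19, 4.53, 4.32 and 4.26, the 10 ppm animals 4.57, 4.64, 4.61 and 4.74, and the 15 ppm animals 5.09, 4.64, 4.89 and 4.91. Both exposed groups lay above the 0.7 ppm group, by 0.32 at 10 ppm (adjusted p = 0.0461) and 0.56 at 15 ppm (adjusted p = 5.59e-05). The call at 10 ppm was lost in 10 of 18 alternatives. At 13 w the difference in Mmp10 at 15 ppm was 0.22 (adjusted p = 0.101), which passed with array weights (0.29, adjusted p = 0.0134) and in a fit of the 13 w animals alone (adjusted p = 0.0395), and the change of its response from 5 d to 13 w did not pass (-0.34, adjusted p = 0.155).

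Mmp9, or gelatinase B, cuts denatured collagen and collagen IV and is stored in neutrophil granules. At 5 d its signals were 6.34, 5.96, 5.63 and 6.80 at 0 ppm and 7.07, 7.35, 6.90 and 7.22 at 15 ppm. The groups did not overlap, and Mmp9 rose 1.94-fold, by 0.96 ± 0.28 (limma, adjusted p = 0.00525). A second Mmp9 probe set, of lower signal, rose by 0.61 (adjusted p = 0.00181). Against 10 ppm the rise was 0.91 (adjusted p = 0.0198). This call was lost with the RNA integrity number as a covariate (adjusted p = 0.106, with 1 of the 10 ppm animals dropped for want of a value) and without either of 2 animals, 1 at each dose (adjusted p = 0.103 and 0.0645). The 10 ppm animal of these 2 is the one without a value. Leaving it out alone gave a difference of 0.74, against 0.76 with the covariate. At 15 ppm the Mmp9 difference was 0.19 at 4 w (adjusted p = 0.66) and -0.14 at 13 w (adjusted p = 0.722). The change of its response from 5 d to 13 w was -1.10 ± 0.40 and missed the threshold (adjusted p = 0.052), while the second probe set passed (adjusted p = 0.0235). Of the alternatives for the first probe set, 4 processing settings also passed, with changes from -1.36 to -0.91.

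Mmp14, a membrane-anchored enzyme that activates the Mmp2 precursor at the cell surface, had signals of 10.34, 10.21, 10.11 and 10.54 at 0 ppm and 11.01, 11.23, 10.71 and 10.45 at 15 ppm at 5 d. The lowest exposed animal lay within the unexposed range. The Mmp14 difference of 0.55 ± 0.21 passed (limma, adjusted p = 0.0317) but was lost in 7 of 20 alternatives, among them the RNA integrity number as a covariate, 0.7 ppm as the reference (0.28, adjusted p = 0.332) and leaving out any 1 of 4 animals (adjusted p up to 0.151). The second Mmp14 probe set differed by 0.34 (adjusted p = 0.106). For the first probe set, the Mmp14 difference at 15 ppm at 13 w was 0.23 (limma, adjusted p = 0.397).

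Mmp2, or gelatinase A, is made chiefly by fibroblasts, and Mmp13 is the main interstitial collagenase of rodents. Neither was called in any comparison, and both varied widely among animals of 1 group. Over all animals Mmp2 ranged from 7.65 to 10.83 and Mmp13 from 9.21 to 12.47. At 15 ppm against 0 ppm at 5 d the Mmp2 difference was 0.16, with a 95% interval from -0.79 to 1.11. For Mmp13 it was 0.09, from -0.89 to 1.07. A difference of the size found for Mmp3 lay outside both intervals.

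The 6 ppm group at 5 d held lower Mmp2 signals, 8.69, 8.00, 8.91 and 8.76, than the 0 ppm group, 10.29, 9.56, 9.01 and 9.98. The groups did not overlap, and the difference of -1.12 ± 0.47 did not pass over all genes (limma, adjusted p = 0.131). Mmp13 differed by the same -1.12 there (adjusted p = 0.146). At 13 w, Mmp2 at 15 ppm lay below all 0 ppm animals, by -0.97 on average (adjusted p = 0.0935). The Mmp2 differences at 10 ppm and 2 ppm were -1.06 (adjusted p = 0.0933) and -1.08 (adjusted p = 0.452), so no order by dose was seen.

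Mmp12, or macrophage elastase, ranged from 7.62 to 9.58. At 15 ppm at 5 d it differed by 0.25 ± 0.24 from 0 ppm (limma, adjusted p = 0.463). The difference between the 3' and 5' actin control probe sets, a measure of RNA degradation, was 2.47 at 15 ppm and 1.71 at 0 ppm in these groups. With the actin difference as a covariate the Mmp12 difference was 0.90 (limma, adjusted p = 0.0023). The mean RNA integrity number pointed the other way, to less degradation at 15 ppm (8.32) than at 0 ppm (7.67). With that number as a covariate Mmp12 was not called. The 0 ppm animals themselves had 9.12, 9.09, 9.50 and 8.59 at 5 d and 8.02, 8.51, 8.53 and 8.19 at 13 w. All 4 older animals were lower, by -0.76 on average, but the difference did not pass (adjusted p = 0.0768, and between 0.0105 and 0.0468 with array weights, the actin covariate or a fit of those times alone), in a comparison where 2.24% of genes were called and no member was, with 2 (Mmp7 and Mmp12) at an unadjusted p under 0.05. With the 0.7 ppm animals as the reference at 13 w, Mmp12 was higher at 6 ppm (0.73, adjusted p = 0.0411) and at 10 ppm (0.71, adjusted p = 0.0241). Against 0 ppm these differences were 0.48 (adjusted p = 0.213) and 0.45 (adjusted p = 0.178).

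Mmp7, or matrilysin, an enzyme of glandular epithelia, had a low mean in all 17 groups, and 67 of 68 animals were under 6. At 15 ppm at 5 d all 4 animals were above all 0 ppm animals, with means of 5.32 and 4.87, and the difference of 0.46 missed the threshold (limma, adjusted p = 0.0519). It passed in a fit of the 5 d animals alone (adjusted p = 0.0193) and with either the RNA integrity number (0.54, adjusted p = 0.0177) or the actin difference (0.61, adjusted p = 0.0266) as a covariate. At this signal Mmp7 gives little information in either direction.

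**Figure D3:**
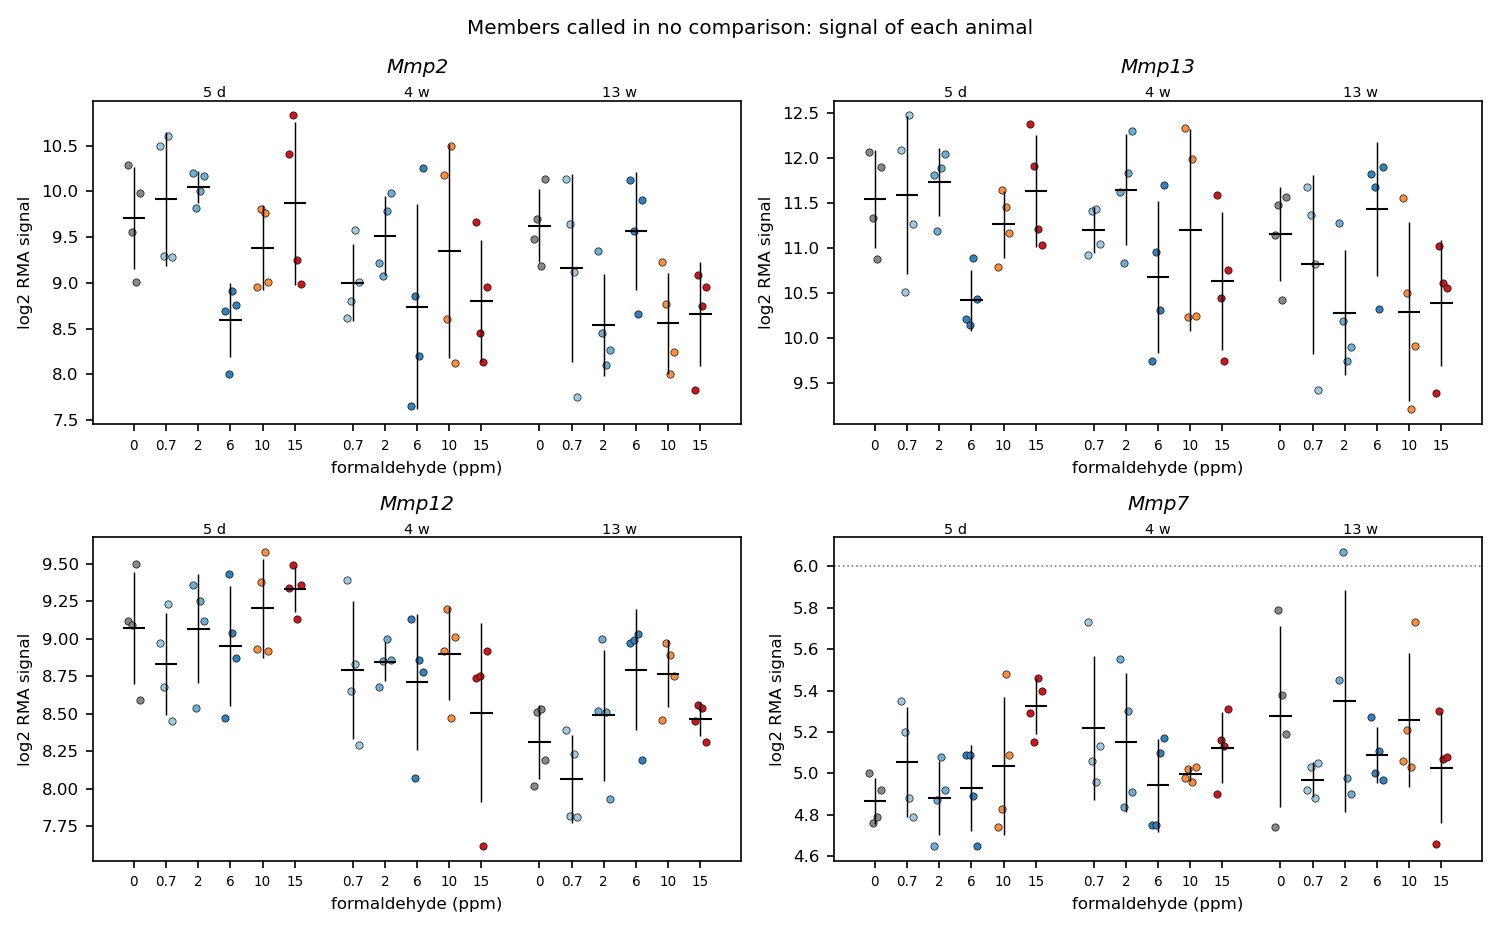
Log2 signal of Mmp2, Mmp13, Mmp12 and Mmp7 in each of the 68 animals by dose in ppm and time, with a bar at each group mean, a line of 1 SD to either side and a dotted line at the low-signal limit of 6. No group was called against its reference, Mmp2 and Mmp13 spread by more than 1 log2 unit within several groups, and Mmp7 stays under 6 in all but 1 animal.

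Timp1 is a secreted inhibitor of most metalloproteinases and is induced by many inflammatory signals. At 5 d its signals were 11.33, 11.13, 11.18 and 11.55 at 0 ppm, 11.35, 11.90, 12.04 and 11.99 at 10 ppm, and 12.54, 12.66, 12.24 and 12.07 at 15 ppm. Every animal at 15 ppm was above every animal at 10 ppm and 0 ppm, although the difference from 10 ppm did not pass (0.56, limma, adjusted p = 0.0878). Timp1 rose 2.12-fold at 15 ppm, by 1.08 ± 0.23 (limma, adjusted p = 0.000106). At 10 ppm the difference was 0.52 (adjusted p = 0.119), which became a call against 0.7 ppm (0.63, adjusted p = 0.04), with the array weights, with the actin covariate and without 1 animal.

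At 4 w the Timp1 signals were 10.75, 11.66, 10.98 and 10.40 at 0.7 ppm, 11.82, 11.76, 11.82 and 12.03 at 10 ppm, and 12.18, 11.76, 11.70 and 12.20 at 15 ppm. All exposed animals at these doses were above all reference animals. The rises were 1.88-fold at 10 ppm (0.91 ± 0.23, limma, adjusted p = 0.00339) and 2.02-fold at 15 ppm (1.01, adjusted p = 0.000282). At 13 w the signals were 11.04, 10.95, 10.52 and 11.15 at 0 ppm, 11.66, 11.92, 11.41 and 11.48 at 10 ppm, and 11.64, 11.94, 11.94 and 11.77 at 15 ppm. These groups did not overlap with the unexposed one either. The rises were 1.63-fold (0.70, adjusted p = 0.0163) and 1.88-fold (0.91, adjusted p = 0.000768). The mean RNA integrity number was 8.90 at 15 ppm and 7.57 at 0 ppm at 13 w, over the 3 animals of each group with a value. With this number as a covariate, in a fit that drops the 5 arrays without one, both calls were lost (0.56 at 10 ppm, adjusted p = 0.132, and 0.65 at 15 ppm, adjusted p = 0.0947). The call at 10 ppm was also lost without either of 2 animals (adjusted p = 0.0819 and 0.0721).

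The Timp1 response at 15 ppm differed by -0.17 ± 0.32 between 13 w and 5 d, with a 95% interval from -0.82 to 0.47 (limma interaction, adjusted p = 0.8). For Mmp3 the same contrast was -4.69. The difference between these changes was not tested.

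Timp3, an inhibitor that binds to the matrix and also blocks several ADAM proteinases, moved the other way. At 4 w its signals were 9.69, 9.63, 10.56 and 10.03 at 0.7 ppm, 10.40, 9.12, 10.93 and 9.0 at 10 ppm, and 9.47, 8.89, 8.09 and 8.82 at 15 ppm. The 10 ppm group spread over both others, and all 15 ppm animals were below all 0.7 ppm animals. Timp3 fell at 15 ppm against 0.7 ppm, with 2.23-fold higher signal at the lower dose (-1.16 ± 0.33, limma, adjusted p = 0.00337). Against 10 ppm it also fell (-1.05, adjusted p = 0.0413), where 6.29% of genes were called, 5.11% higher and 1.18% lower. That call was lost in 8 of 19 alternatives, and without 1 animal of the 10 ppm group the difference was -0.69 (adjusted p = 0.255).

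At 13 w the Timp3 signals were 10.21, 10.35, 9.88 and 10.20 at 0 ppm, 9.62, 9.14, 8.67 and 9.03 at 10 ppm, and 8.92, 9.18, 8.91 and 9.22 at 15 ppm. All 8 animals at the upper doses were below all unexposed ones. Timp3 fell by 1.04 at 10 ppm (-1.04, limma, adjusted p = 0.0124) and by 1.10 at 15 ppm (-1.10, adjusted p = 0.00431). The call at 10 ppm was lost against 0.7 ppm (-0.77, adjusted p = 0.0741) and without 1 animal (-0.90, adjusted p = 0.052). The 3 other Timp3 probe sets were called lower at 15 ppm as well, at -1.01, -0.81 and -0.39 (adjusted p = 0.00328, 0.0101 and 0.0118). At 4 w, 1 of those 3 was called (-0.80, adjusted p = 0.0134), and the others differed by -0.59 and -0.14.

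At 5 d Timp3 had signals of 10.02, 9.58, 9.62 and 10.51 at 0 ppm, 10.81, 10.34, 10.87 and 10.01 at 0.7 ppm, and 10.08, 10.38, 9.20 and 9.11 at 15 ppm. The 0 and 15 ppm groups overlapped, with a difference of -0.24 (limma, adjusted p = 0.617). With 0.7 ppm as the reference, Timp3 was called lower at 6 ppm (-1.17, adjusted p = 0.0183), 10 ppm (-1.29, adjusted p = 0.00264) and 15 ppm (-0.82, adjusted p = 0.042). Whether Timp3 fell at 5 d thus depends on the reference group. The change of its 15 ppm response from 5 d to 13 w did not pass (-0.86, adjusted p = 0.229).

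The other genes of the 2 families were read from the same fit. Of 17 listed, 12 were measured. At 15 ppm against 0 ppm at 5 d, 3 rose and 3 fell, with a median difference of 0.00. In that comparison 37.7% of all genes were called, 18.3% higher and 19.5% lower. Mmp8, the collagenase of neutrophil granules, had low means of 5.65 and 4.93 and rose by 0.72 ± 0.11 (limma, adjusted p = 2.03e-07). Its difference was 0.18 at 4 w (adjusted p = 0.193) and 0.02 at 13 w (adjusted p = 0.9), and the change from 5 d to 13 w passed (-0.70, adjusted p = 0.000612). Mmp28, or epilysin, an enzyme of keratinocytes, rose at all 3 times, by 0.66, 0.64 and 1.04. Timp2 rose by 0.30, 0.38 and 0.35 at the same times. Timp4 fell by 0.77, 0.88 and 1.08, and the membrane-type Mmp15 fell by 0.45, 0.35 and 0.46. At 13 w, 2 of these genes rose and 5 fell, with Mmp11 at -0.38, Mmp16 at -0.76 and Mmp24 at -0.25 beside the former pair. At that time 44.2% of all genes were called, 23.5% higher and 20.6% lower.

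Of 18 measured activators and partners of the enzymes, 5 rose at 15 ppm at 5 d, 6 at 4 w and 6 at 13 w, and none of them fell in these comparisons. Over all genes, 18.3%, 21.3% and 23.5% were called higher at those times and 37.7%, 37.4% and 44.2% in either direction, so most of the list did not pass. Its median difference was 0.22 at 5 d, 0.10 at 4 w and -0.04 at 13 w. At 6 ppm at 13 w, 3 of its genes rose and 1 fell, where 12.2% of all genes were called. Plaur, the receptor that gathers urokinase at the cell surface, had means of 10.40 and 6.23 at 15 and 0 ppm at 5 d and rose by 4.17 ± 0.27 (limma, adjusted p = 1.04e-18). Its rises were 3.32 at 4 w and 3.04 at 13 w, and the response was smaller at 13 w than at 5 d (-1.13, adjusted p = 0.0329). Serpinb2, an inhibitor of urokinase, rose by 2.60, 3.89 and 4.00. Plau, urokinase itself, rose by 1.37 at 5 d and 1.17 at 4 w. Cd44, a hyaluronan receptor that can dock Mmp9, rose by 1.46, 0.89 and 1.10. Plaur also rose at 10 ppm, by 2.36, 2.73 and 2.74 at the 3 times. Mmp3 differed by -0.12, 3.65 and 0.47 in those comparisons.

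Among 18 measured genes of the AP-1, ETS and NF-kB families, 8 rose and 3 fell at 15 ppm at 5 d, 8 rose and 4 fell at 4 w, and 7 rose and 5 fell at 13 w. Over all genes, 18.3% were called higher and 19.5% lower at 5 d, 21.3% and 16.1% at 4 w, and 23.5% and 20.6% at 13 w. Fosl1, a Fos protein induced in migrating keratinocytes, had means of 9.55 and 6.23 at 15 and 0 ppm at 5 d and rose by 3.32 ± 0.21 (limma, adjusted p = 4.73e-19). Its rises at 4 w and 13 w were 3.28 and 3.25, and the change between 5 d and 13 w was -0.07 ± 0.30 (adjusted p = 0.929). Mmp3 had a low signal at 13 w in the same 15 ppm animals. The relation of Mmp3 to Fosl1 was not tested. Fosl2 rose by 1.06 at 5 d and 0.73 at 4 w, and its response was smaller at 13 w (-0.70).

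Among 26 measured substrates, 5 rose and 1 fell at 15 ppm at 5 d, 6 rose and 2 fell at 4 w, and 7 rose and 8 fell at 13 w, where 37.7%, 37.4% and 44.2% of all genes were called. Their median difference was 0.18, 0.09 and -0.20. Vcan, a large proteoglycan of provisional matrix, rose by 3.40 ± 0.25 at 5 d (limma, adjusted p = 1.44e-16), and its response was smaller at 4 w (-2.18) and at 13 w (-3.64, adjusted p = 2.2e-11). Fn1, fibronectin, rose by 1.46 at 5 d and also responded less at 13 w (-1.93, adjusted p = 0.0221). Lama3, a chain of the basement membrane's laminin, rose at all 3 times, by 0.68, 0.78 and 0.79. Col17a1, an anchoring collagen of basal cells, rose by 1.09 at 4 w and 1.47 at 13 w. Of 12 measured ADAM and ADAMTS genes, 3 rose and 2 fell at 13 w, near the share of 44.2% over all genes, with Adam15 at 1.14 and Adam17, the sheddase that Timp3 blocks, at 0.99. Adam17 differed by 0.39 at 5 d, also a call.

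**Figure D4:**
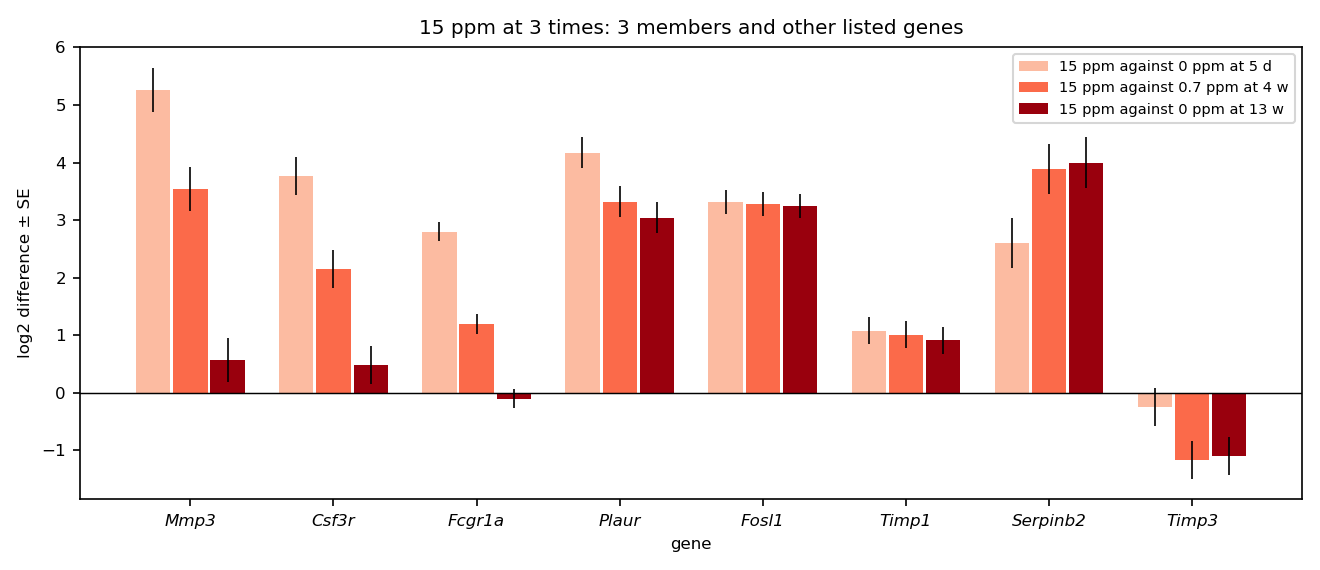
Log2 difference of 15 ppm from its reference at 5 d, 4 w and 13 w (0 ppm at 5 d and 13 w, 0.7 ppm at 4 w) for Mmp3, Csf3r, Fcgr1a, Plaur, Fosl1, Timp1, Serpinb2 and Timp3, with bars of 1 SE. Mmp3 declines from 5.26 to 0.57 beside Csf3r and Fcgr1a, while Fosl1 stays between 3.25 and 3.32 and Timp1 between 0.91 and 1.08.

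Markers of other cell types moved with the members, and in bulk RNA fewer cells of a type and less RNA per cell cannot be told apart. The mean of 7 neutrophil markers was 8.69 to 9.03 at 15 ppm at 5 d against 6.41 to 7.36 at 0 ppm, and 6 of the 7 rose. At 4 w it was 7.38 to 7.98 at 15 ppm and 7.03 to 7.72 at 10 ppm, against 6.05 to 6.55 at 0.7 ppm, with 5 and 3 markers called higher. At 13 w it was 6.64 to 7.49 at 15 ppm against 5.95 to 7.20, with 2 called. Of all genes, 18.3% were called higher at 15 ppm at 5 d, and 21.3% and 9.03% at 15 and 10 ppm at 4 w. At 15 ppm at 13 w, 44.2% were called in either direction. Csf3r, a receptor of neutrophils, rose by 3.76 at 5 d and 2.15 at 4 w, differed by 0.48 at 13 w (limma, adjusted p = 0.253) and responded less at 13 w than at 5 d (-3.28, adjusted p = 4.75e-07). Csf3r is also among the genes most like Mmp3 over the group means. At 15 ppm at 13 w the neutrophil list had a median difference of 0.49. Mmp3 differed by 0.57 there, at a low signal and without a call. The part of these markers in the changes of Mmp3, Mmp9 and Mmp10 was not tested.

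Of 12 macrophage markers, 5 rose at 15 ppm at 5 d, 3 rose at 4 w and 6 fell at 13 w. Their mean was 9.32 to 10.18 at 15 ppm at 5 d against 8.69 to 9.18 at 0 ppm. Of 12 lymphocyte markers, 7 rose at 5 d (median difference 0.50), 4 rose and 1 fell at 4 w, and 5 fell and none rose at 13 w. At 15 ppm, 18.3% of all genes were called higher at 5 d, 21.3% higher and 16.1% lower at 4 w, and 20.6% lower at 13 w. In the change of the 15 ppm response from 5 d to 13 w, 9 lymphocyte, 8 macrophage and 5 neutrophil markers were called lower, as were 6.09% of all genes. The lymphocyte mean was 6.69 to 7.88 at 15 ppm at 5 d against 6.08 to 6.42 at 0 ppm, and 5.88 to 6.22 against 6.22 to 6.87 at 13 w. Gzmb, a granule protease of cytotoxic lymphocytes, rose by 3.12 at 5 d and 0.60 at 4 w. The part of the macrophage and lymphocyte markers in the time course of Mmp3 was not tested.

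Of 15 markers of airway and squamous epithelium, 6 rose and 3 fell at 15 ppm at 5 d, 7 rose and 3 fell at 4 w, and 9 rose and 3 fell at 13 w. All genes were called higher and lower at 18.3% and 19.5% at 5 d, 21.3% and 16.1% at 4 w, and 23.5% and 20.6% at 13 w. Their mean was 11.35 to 11.59 against 10.80 to 11.19 at 5 d and 11.74 to 11.85 against 10.88 to 10.97 at 13 w. Sprr1b, a protein of the squamous cell envelope, rose by 5.50, 6.23 and 6.20 at the 3 times. Their part in the values of Timp1, which rose at the same times, was not tested. The mean of 14 fibroblast markers ranged from 8.01 to 10.24 over all animals. It was 8.01 to 8.95 at 15 ppm at 13 w against 9.29 to 9.66 at 0 ppm, where 6 markers fell and 1 rose and the median difference was -0.93. At 6 ppm at 5 d it was 8.41 to 9.01 against 9.05 to 9.86. These are groups with lower Mmp2, Mmp13 or Timp3 signal, and the part of the fibroblast markers in those values was not tested. Olfactory markers were present in all groups, with no marker's group mean under 6, although that lining was reported as discarded.

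Within groups, the deviation of each animal from its group mean was set against the same deviation of each marker mean, over 68 animals and 80 such relations, with p-values from 100000 permutations within groups. Mmp2 followed the fibroblast markers with Pearson's r of 0.98 and Spearman's rho of 0.98, and r stayed at 0.98 without the 2 farthest animals. Its permutation p of 1e-05 is the smallest that the permutations can give (adjusted p = 4.2e-05 for r and 4.7e-05 for rho). Mmp13 (r 0.91, rho 0.93, and r 0.91 without the 2 animals) and Timp3 (r 0.86, rho 0.85, and r 0.84) reached the same p against these markers. Mmp14 (r 0.79, rho 0.80) and Mmp9 (r 0.70, rho 0.71) did so too. Other stromal lists gave high values as well. Against the bone, cartilage and osteoclast markers r was 0.89 for Mmp2, 0.83 for Mmp13 and 0.77 for Timp3, and against the endothelium markers it was 0.81, 0.69 and 0.77, all at the same smallest permutation p. The relation is thus not particular to the fibroblast list.

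The Mmp3 signal was under 6 in 56 of the 68 animals, so its r cannot be set beside those of members with higher signal. Mmp3 had r of 0.32 and rho of 0.19 with the fibroblast markers (permutation p = 0.095 for r, adjusted p = 0.15) and r of 0.22 with the neutrophil markers (permutation p = 0.07, adjusted p = 0.12), and neither passed. It passed against the endothelium (r 0.46, rho 0.37, adjusted p = 0.04 and 0.015 by permutation), lymphocyte (r 0.42, rho 0.38, adjusted p = 0.015 and 0.0073) and macrophage markers (r 0.34, rho 0.30, adjusted p = 0.042 and 0.049). Without the 2 farthest animals these r were 0.22, 0.31 and 0.35, so the relation with endothelium rests in large part on 2 animals. Mmp12 followed the macrophage markers with r of 0.53 and rho of 0.52 (permutation p = 4e-05, adjusted p = 0.00015), and r was 0.50 without the 2 farthest animals. Timp1 had r of 0.61 and rho of 0.63 with the macrophage markers and r of -0.60 and rho of -0.59 with the olfactory markers, both at the smallest permutation p. Mmp9 had r of 0.46 and rho of 0.43 with the neutrophil markers (permutation, adjusted p = 0.00069 and 0.0032), and Mmp7 had r of 0.47 and rho of 0.49 with the lymphocyte markers (adjusted p = 0.00072 and 0.00041). The Mmp7 signal was under 6 in 67 of the 68 animals. Members and markers were read from the same arrays, and no labelled batch was at hand within which to repeat the relations.

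**Figure D5:**
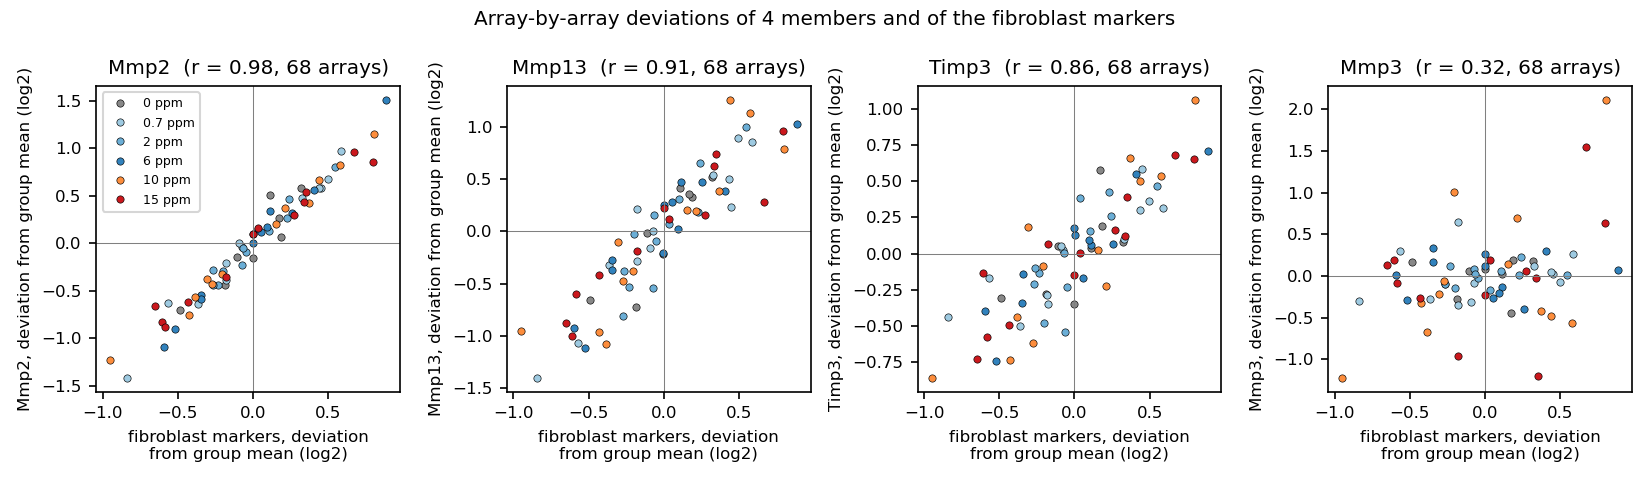
Deviation from the group mean (log2) of Mmp2, Mmp13, Timp3 and Mmp3 against the deviation of the mean of 14 fibroblast markers in each of the 68 animals. Mmp2 lies close to a line (r 0.98), Mmp13 (r 0.91) and Timp3 (r 0.86) follow it, and Mmp3 is more scattered (r 0.32). The Mmp3 signal was under 6 in 56 of the 68 animals.

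The genes whose 17 group means were most like a member's, by Pearson's r and with no test, are a description of groups that share arrays and references. For Mmp3 they were Ccl2 (r 0.947), Ccr1 (0.944) and Csf3r (0.943), a chemokine and 2 receptors of white blood cells. For Mmp10 they were Nfil3 (0.864), Pstpip2 (0.860) and Stfa2l2 (0.843). For Mmp2 they were Cthrc1 (0.987), Rcn3 (0.984) and Bgn (0.983), and for Mmp13 Fstl1 (0.965), Igf1 (0.964) and Itga11 (0.963). For Mmp9 they were Fn1 (0.961), Clec4a (0.932) and Chsy1 (0.926), and for Mmp14 Zfp57 (0.871), Jcad (0.869) and Htra1 (0.854). For Mmp12 they were Qdpr (0.842), Sdf2l1 (0.836) and H2ac25 (0.834), and for Mmp7 Irak2 (0.802), Jchain (0.788) and Arg1 (0.787). For Timp1 they were Lxn (0.969), Eif4a3 (0.966) and C1h11orf24 (0.966), and for Timp3 Sspn (0.944), Arhgef10 (0.911) and Sh3kbp1 (0.898).

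Among the members, the group means of Mmp2 and Mmp13 had r of 0.95, those of Mmp3 and Mmp10 0.88, and those of Mmp2 and Mmp9 0.80. Mmp3 and Timp1 had 0.75, Mmp2 and Timp3 0.63, Mmp2 and Mmp3 0.17, and the 2 inhibitors, Timp1 and Timp3, had -0.56. Mmp3 was low in 14 of the 17 groups, so its r with Mmp10 rests on the other 3. Mmp3, Mmp7, Mmp10, Mmp12 and Mmp13 lie in 1 cluster with the same letters upstream. Mmp3 and Mmp10 were called at 5 d and 4 w, and Mmp7, Mmp12 and Mmp13 were not. At 0 ppm at 5 d the mean signal was 4.73 for Mmp3, 4.30 for Mmp10, 4.87 for Mmp7, 9.08 for Mmp12 and 11.54 for Mmp13. The part of these letters in the calls was not tested.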

How the data were processed

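The submitters' processing notes name GCOS 1.0 and RMA, a method of background correction and normalization between arrays, and the deposited values are log2 signals per probe set. Genome build and batch are not given in the sources used here. The values ran from 3.17 to 15.4 over 31099 probe sets and 68 arrays, with array medians from 6.82 to 6.96, correlations between arrays of 1 group from 0.977 to 0.996 and 0 missing values, so no 2 arrays of a group were identical. Their number, not a depth, limits the precision, and the median standard error of a difference was 0.104.

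Probe sets were named by GEO's platform annotation: 20826 name 1 gene, 436 several, 9780 none, and 57 are controls. Probe sets with several names were left out, and each of 14217 genes took its probe set of highest mean, 4525 of them from more than 1. One limma model (version 3.58.1, R 4.3.3) held a mean for each of 17 groups over all 68 arrays, with 51 residual and 2.85 prior degrees of freedom. It gave 26 comparisons, each adjusted over all genes by Benjamini-Hochberg and called under 0.05. Tests are two-sided. The animals carry different numbers, so p-values measure the spread between animals, pooled over the 17 groups for each gene. The model was tested on simulated data. Low signal was set at a group mean under 6.

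The members and the gene lists were chosen with earlier results of these data known. All 10 members are named, any measured gene of the other MMP and TIMP genes may be, and of each other list up to 4 called genes per comparison with the smallest adjusted p. The 3 most alike genes were taken by Pearson's r over the group means, among genes with at least 1 group mean of 6. Motifs were searched in the 250 bases before each start in 33469 RefSeq promoters of GRCr8. The alternatives were median centring, cyclic loess, leaving out dim genes, the mean of a gene's probe sets, every probe set tested, array weights, trended robust spread, a fit of the compared times only, the RNA integrity number (63 arrays with a value) or the actin 3'/5' difference as a covariate, 0.7 ppm as the reference, a 1.5-fold minimum and leaving out each animal.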

Additional observations from a re-analysis of the deposited data

Results flagged for a closer look

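In groups of 4, 1 animal stood apart from the other 3 by more than Dixon's 95% critical value in 5 of 170 combinations of gene and group, where chance gives about 1 in 20. One 0 ppm animal at 5 d had an Mmp3 signal of 4.28, against 4.81 to 4.91 in the others. One 2 ppm animal at 4 w had an Mmp10 signal of 4.50, against 4.31 to 4.34. For Mmp12, 1 animal had 7.62 at 15 ppm at 4 w, against 8.74 to 8.92, and another had 8.19 at 6 ppm at 13 w, against 8.97 to 9.03. For Mmp13, 1 animal had 10.32 at 6 ppm at 13 w, against 11.68 to 11.90. The first 2 of these lie in the low range of the array.

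The Mmp3 response to 15 ppm differed between times in each of the 3 limma interaction tests. It was smaller at 13 w than at 5 d (-4.69) and, against 0.7 ppm, smaller at 4 w than at 5 d (-1.92) and at 13 w than at 4 w (-2.92). The call for 4 w against 5 d was lost in 12 of 27 alternatives. The tests against 0.7 ppm share the 4 w animals. All 4 animals of each 15 ppm group were above the reference animals of their time, and the groups differ in other markers as well, whose part was not tested.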

How the results depend on the processing

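Over 800 combinations of a gene's comparison and an alternative, 712 kept direction and side of the threshold, 48 lost the call, 40 gained one and 0 changed sign. Only pairs of gene and comparison called in the model of all arrays or under an alternative were counted, which leaves out most differences near 0. Leaving out dim genes, testing every probe set, trended robust spread, fitting the compared times only and the 1.5-fold minimum do not alter the difference itself. Its sign could not change under these settings, so the 0 says little about direction. The changes in the number of members called by over 1.5 times come first; unless stated, the cause was not tested. With 0.7 ppm as the reference it was 1 (not 0) at 6 ppm at 5 d, 2 (not 0) at 10 ppm at 5 d and 1 (not 0) at 6 ppm at 13 w. With the actin covariate it was 1 at 10 ppm at 5 d, 5 (not 3) from 10 to 15 ppm at 5 d, 1 at 6 ppm at 13 w, 3 (not 1) in the 15 ppm interaction of 13 w and 5 d, 2 (not 1) in that of 4 w and 5 d, and 1 (not 0) at 0 ppm between 13 w and 5 d. With array weights it was 1 at 10 ppm at 5 d, 0 (not 1) from 10 to 15 ppm at 4 w, 2 and 0 in those interactions and 1 at 0 ppm. In fits of the compared times only it was 0 from 10 to 15 ppm at 4 w, 0 in the interaction of 4 w and 5 d and 1 at 0 ppm. With the RNA integrity covariate it was 1 (not 2) at 10 ppm and at 15 ppm at 13 w and 0 in the interaction of 4 w and 5 d. Cyclic loess gave 5 from 10 to 15 ppm at 5 d, the mean of probe sets 0 from 10 to 15 ppm at 4 w and 2 in the interaction of 13 w and 5 d, and leaving out dim genes 2 there. A 1.5-fold minimum gave 3 (not 5) at 15 ppm at 5 d, by construction. Smaller changes at 15 ppm at 5 d were 7 with the actin covariate (Mmp7 and Mmp12 added), 6 in a fit of that time only and 4 without dim genes. At 10 ppm at 4 w the count was 2 (not 3) with median centring, every probe set tested, a fit of that time only, dim genes left out or the 1.5-fold minimum. From 10 to 15 ppm at 5 d it was 2 with the RNA integrity covariate or dim genes left out, and at 10 ppm at 13 w it was 3 (not 2) with the actin covariate. At 15 ppm it was 3 (not 4) at 4 w with dim genes left out or the 1.5-fold minimum, and 3 (not 2) at 13 w with array weights or a fit of that time only. Mmp10 had a mean under 6 in all 17 groups, so it was not tested with dim genes left out. The lower counts under that setting follow by construction.

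Without 1 animal in turn, the count ranged from 4 to 5 at 15 ppm at 5 d, 2 to 4 from 10 to 15 ppm at 5 d, 0 to 1 at 10 ppm at 5 d, 2 to 3 at 10 ppm at 4 w, 4 to 4 at 15 ppm at 4 w, 1 to 1 from 6 to 10 ppm at 4 w, 0 to 1 from 10 to 15 ppm at 4 w, 1 to 2 at 10 ppm and 2 to 2 at 15 ppm at 13 w, 1 to 3, 0 to 1 and 1 to 1 in the 15 ppm interactions of 13 w and 5 d, 4 w and 5 d, and 13 w and 4 w, and 0 to 1 at 0 ppm between times. The other comparisons stayed at 0. No paired analysis was possible because every animal has its own number. Of all genes, 1256 were called at 6 ppm at 5 d, against 2606 with array weights and 595 with the actin covariate, and 894 from 10 to 15 ppm at 4 w, against 381 in a fit of that time only. Signals of Mmp3 outside 3 groups, Mmp7 and Mmp10 are low, which limits what can be read from them.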
